A study of Rattus norvegicus with 32 samples.

Results

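Tachykinins are neuropeptides cut from larger precursors, and this report describes the 2 precursor genes and 2 receptor genes of this family that were followed in the rat brain: Tac1, Tac3, Tacr1 and Tacr3. They were picked by name from the gene identifiers of the count files, and make up 4 of the 28914 genes counted. Adult male Sprague-Dawley rats received either METH (methamphetamine, 10 mg/kg) or saline (Sal, 1 mL/kg) by intraperitoneal injection, 4 times at intervals of 2 h. A day later (24 h after the last injection) tissue was taken from the nucleus accumbens (NAc) and the subventricular zone (SVZ). It was also taken from 2 regions of the hippocampus, Ammon's horn (CA) and the dentate gyrus (DG). RNA-seq was run on RNA depleted of ribosomal RNA. Each region and treatment had 4 samples, 32 in all, and a name such as DG Sal 3 gives region, treatment and replicate. The data concern 1 dose schedule, 1 time point and males of 1 strain. The replicates were not traced to single animals, so p-values measure the spread between these samples. The paper describes dissecting the regions from each brain, so samples of different regions may share a rat. The main tests across regions treated them as independent.

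Tac1 encodes the precursor of substance P and neurokinin A, and Tac3 (called Tac2 in the mouse) that of neurokinin B. Substance P acts mainly on the NK1 receptor, the product of Tacr1, and neurokinin B mainly on the NK3 receptor, the product of Tacr3. Both receptors couple to Gq proteins, which switch on phospholipase C and release calcium inside the cell. In the striatum, of which the NAc is the ventral end, Tac1 is known from projection neurons that carry the dopamine receptor Drd1, and Tacr1 from cholinergic and some GABA interneurons.

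In rn6, the genome build of the count files, Tac1 lies on the plus strand of chr4:33638709-33646819 (7 exon blocks, 1178 exon bases) and Tacr1 on the plus strand of chr4:113247795-113414504 (5 blocks, 1224 bases). Tacr3 lies on the plus strand of chr2:240021152-240118971 (5 blocks, 2159 bases) and Tac3 on the plus strand of chr7:71023976-71030582 (7 blocks, 723 bases). The span of Tac3 overlaps that of LOC100365958, with which it shares 0 exon bases.

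The start regions are shown because the levels of Tac1 and Tacr1 went together over the 32 samples while those of Tacr3 did not. The 250 bases before the start were read from RefSeq's promoter table on the newer build GRCr8, which matched 3 of the 4 genes (Tac1, Tacr1 and Tacr3). The motifs searched were the full cyclic AMP response element TGACGTCA and its half-site TGACG, both on either strand, and the TATA sequence TATAAA on the gene strand. Capitals mark a half-site (written CGTCA where it is on the minus strand) or the TATA sequence. The Tac1 window lies inside a longer model of the gene, so only 30 bases around its half-site are given (chr4:36645365-36645394, plus strand), and the Tacr1 (chr4:116478367-116478616, plus strand) and Tacr3 (chr2:225940247-225940496, plus strand) windows are given whole.
Tac1: tccctaaaattgCGTCAtttcgaacccaat
Tacr1: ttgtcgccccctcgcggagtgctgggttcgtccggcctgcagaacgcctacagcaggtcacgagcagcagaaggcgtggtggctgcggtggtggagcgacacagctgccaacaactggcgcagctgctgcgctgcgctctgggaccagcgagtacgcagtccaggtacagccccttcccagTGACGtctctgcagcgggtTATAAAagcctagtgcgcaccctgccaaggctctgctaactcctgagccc
Tacr3: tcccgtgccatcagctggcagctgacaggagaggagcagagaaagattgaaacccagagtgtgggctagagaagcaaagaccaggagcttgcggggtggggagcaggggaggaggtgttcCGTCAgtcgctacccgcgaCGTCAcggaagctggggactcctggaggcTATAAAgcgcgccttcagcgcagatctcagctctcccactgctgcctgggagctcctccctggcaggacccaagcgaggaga

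The half-site was present in all 3 windows, beside 18.2% of the 33469 promoters of the table. It lay at 206 to 202 bases before the start in Tac1, at 69 to 65 in Tacr1, and at 130 to 126 and 111 to 107 in Tacr3. The TATA sequence lay at 50 to 45 bases before the start of Tacr1 and at 82 to 77 of Tacr3, beside 8.06% of all promoters, and was not among the letters of the Tac1 window. The full element, held by 1.59% of all promoters, was in none of the 3 windows. These matches are letters in a window and were not measured as sites here.

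Samples had 11094002 to 21869773 counts in total (median 14533166.5). Levels are in CPM, the count scaled to the upper-quartile library size. The floor was set at 3 counts, and none of the 4 genes was at it in any sample, the lowest counts being 24 for Tac1, 44 for Tac3, 8 for Tacr1 and 4 for Tacr3. Some samples stood apart in their marker genes. The summed level of 6 genes of striatal projection neurons (Ppp1r1b, Rgs9, Pde10a, Bcl11b, Adcy5 and Rarb) was 327 CPM in NAc METH 3 against 1635 to 7547 CPM in the other NAc samples, and 1915 CPM in DG Sal 3 against 419 to 665 CPM in the other DG samples. The summed level of 6 thalamic genes was 1747, 1542 and 1044 CPM in SVZ Sal 1, SVZ METH 2 and SVZ METH 4, against 77.2 to 480 CPM in the other SVZ samples. The granule neuron genes Prox1 and C1ql2 had medians of 52.1 and 9.85 CPM in DG Sal, below their 167 and 53.8 CPM in CA Sal, and of 236 and 68.9 CPM in DG METH, above their 72.6 and 33.0 CPM in CA METH. The DG label thus went with the higher median of these markers in METH samples and not in saline samples. Numbers in the file headers give DG Sal 1 and 2 the library numbers of NAc and CA METH 1 and 2, and DG METH 1 and 2 those of NAc and CA Sal 1 and 2, while the 4 SVZ METH libraries carry 2 numbers. Samples were grouped by their labels, and the main results in the DG are also given without the libraries with crossed numbers.

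Tac1 was the most variable of the 4 genes. Its level ran from 1.48 to 203 CPM over the 32 samples, a ratio of 137. In the NAc it was 203, 35.3, 105 and 80.8 CPM in Sal 1 to 4, and 107, 112, 19.1 and 116 CPM in METH 1 to 4. Apart from METH 3, the METH samples lay within the saline range. In the SVZ it was 3.11, 119, 114 and 64.8 CPM in Sal and 42.7, 3.46, 64.1 and 15.5 CPM in METH, so both treatments held samples at the level of the hippocampus. The lowest saline and the lowest METH sample there, Sal 1 and METH 2, were those with the highest thalamic levels.

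In the hippocampus Tac1 was lower. In the DG it was 7.91, 4.63, 48.3 and 6.82 CPM in Sal and 1.48, 2.6, 10.3 and 2.83 CPM in METH. DG Sal 3, the sample with the raised striatal genes, stood above all other DG samples, and 3 of the 4 METH samples were below every saline sample. In the CA it was 2.1, 6.75, 4.19 and 6.83 CPM in Sal and 7.86, 11, 7.45 and 8.73 CPM in METH, and the groups did not overlap.

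Tac3 was lower and less spread, from 2.12 to 49.1 CPM. In the NAc it was 7.84, 20.4, 17.6 and 12.2 CPM in Sal and 36.8, 49.1, 19.8 and 29.5 CPM in METH. METH 1, 2 and 4 were above every saline sample and METH 3, the sample with few striatal transcripts, lay just below the highest of them. In the DG it was 5.95, 6.21, 18.8 and 5.26 CPM in Sal and 5.9, 11.2, 5.4 and 9.55 CPM in METH, with DG Sal 3 again on top. In the CA it was 7.5, 3.38, 5.52 and 6.92 CPM in Sal and 6.52, 6.62, 13.3 and 3.83 CPM in METH. The SVZ gave 2.12, 16, 9.34 and 4.38 CPM in Sal and 5.8, 2.53, 11.4 and 16.8 CPM in METH, and the treatments overlapped in both of these regions.

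Among the receptors, Tacr1 was steadiest in the NAc, at 7.69, 9.95, 7.4 and 7.19 CPM in Sal and 4.61, 8.18, 9.39 and 6.22 CPM in METH. The ratio of the highest to the lowest NAc saline sample was 1.38, against 5.74 for Tac1. In the DG it was 2.19, 0.787, 6.04 and 1.32 CPM in Sal and 3.2, 1.81, 2.82 and 2.39 CPM in METH. DG Sal 3 was here too the highest of the 8 DG samples, so it held the highest Tac1, Tac3 and Tacr1 of that region. The CA had 3.01, 2, 2.25 and 1.56 CPM in Sal and 0.92, 3.08, 2.85 and 2.41 CPM in METH. The SVZ had 0.378, 4.99, 4.19 and 5.07 CPM in Sal and 1.92, 2.43, 3.68 and 3.14 CPM in METH. SVZ Sal 1 was the lowest of the SVZ samples for Tac3 and Tacr1 as well as for Tac1.

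Tacr3 had another distribution, with its highest values in the hippocampus. In the DG it was 11.3, 14.2, 5.66 and 9.29 CPM in Sal and 1.17, 2.46, 3.71 and 0.377 CPM in METH, and every METH sample was below every saline sample. In the CA it was 0.795, 9.13, 4.91 and 15.8 CPM in Sal and 10.9, 13.6, 6.48 and 10.3 CPM in METH. Here the METH samples lay within the wide saline range. The NAc had 2.86, 11.7, 5.05 and 6.16 CPM in Sal and 3.2, 4.47, 11 and 2.01 CPM in METH. The SVZ had 0.189, 3.19, 1.97 and 1.04 CPM in Sal and 6.23, 1.71, 1.56 and 3.75 CPM in METH, and the groups of both regions overlapped.

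**Figure D1:**
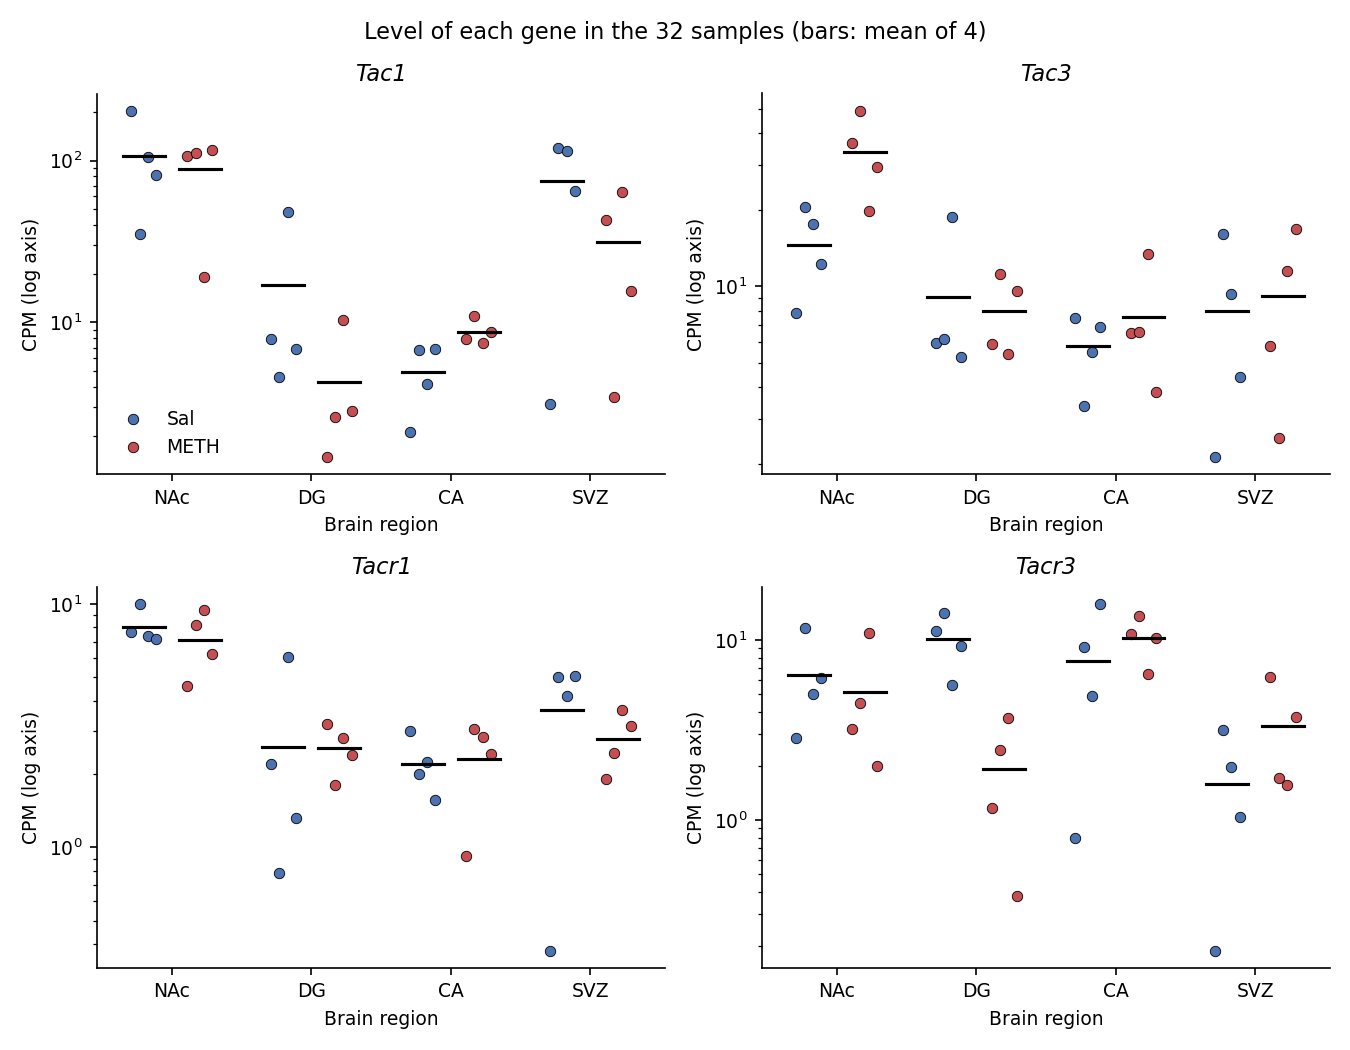
Level of Tac1, Tac3, Tacr1 and Tacr3 in CPM (log axis) in each of the 32 samples, by brain region and treatment, with a bar at the mean of 4. The 4 DG METH points of Tacr3 lie below the 4 saline points, the 4 CA METH points of Tac1 above theirs, and 3 of 4 NAc METH points of Tac3 above all NAc saline points.

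Divided by exon length, so that genes can be compared, the mean level in NAc saline samples was 89.9 ± 60.0 CPM per kb (SD, n = 4) for Tac1, 20.1 ± 7.76 for Tac3, 6.58 ± 1.04 for Tacr1 and 2.98 ± 1.74 for Tacr3. In CA saline samples the same levels were 4.22 ± 1.93, 8.06 ± 2.53, 1.80 ± 0.496 and 3.55 ± 2.97 CPM per kb, so Tac3 had the highest mean of the 4 genes in the CA and Tac1 in the NAc. The ratio of Tac1 to Tac3 per kb was 1.06 to 15.9 in NAc Sal and 0.59 to 2.41 in NAc METH. It was 0.172 to 1.23 in CA Sal and 0.343 to 1.40 in CA METH, so the order of both ligand genes differed between samples of the CA.

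METH was compared with saline in each region by edgeR's quasi-likelihood test over all genes, with Benjamini-Hochberg adjustment. A call needed an adjusted p (FDR) below 0.01 together with a fold change of more than 1.5. None of the 16 pairs of gene and region was called. The share of all genes called was 0% in each region, of 14771, 14800, 14612 and 15579 genes tested in the NAc, DG, CA and SVZ. DESeq2 called 1, 176, 10 and 2 genes there. At an unadjusted p under 0.05, 3.39%, 12.8%, 7.16% and 2.58% of all genes were found in the NAc, DG, CA and SVZ, and 1 of the 4 genes described here was found in the NAc, DG and CA each and 0 in the SVZ.

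Tac3 in the NAc had a mean of 14.5 ± 5.61 CPM (SD, n = 4) in Sal and 33.8 ± 12.3 CPM in METH. The log2 fold change was 1.23 (SE 0.34, 95% interval 0.45 to 2.01, edgeR FDR = 0.999), a ratio of 2.35, and the interval, which is not adjusted over all genes, left out 0. Sequencing runs are not given by the labels and were inferred from names in the file headers. Within the inferred run that held both treatments, Sal 3 and 4 had 17.6 and 12.2 CPM. METH 1 and 2 of that run had 36.8 and 49.1 CPM. With the run as a covariate the log2 fold change was 1.54, and leaving out each sample in turn kept it between 0.99 and 1.44. NAc METH 3 had the lowest Tac3 of its group, and without it the value was 1.42. The summed level of 4 cholinergic genes, 86.9 to 199 CPM in NAc Sal and 57.6 to 107 CPM in NAc METH, overlapped between the treatments, but its median was lower in METH (79.7 against 137 CPM). The summed level of 5 astrocyte genes (Aqp4, Gja1, Aldh1l1, Slc1a3 and Gfap) did not overlap, at 1840 to 2143 CPM in NAc Sal and 2207 to 3729 CPM in NAc METH. Within this list the NAc log2 fold change was 1.58 for Gfap and -0.12 for Gja1. The astrocyte sum did not overlap in the SVZ either, at 1795 to 2213 CPM in Sal and 2215 to 2767 CPM in METH, although Tac3 overlapped there. The part of either cell type in the Tac3 difference was not tested.

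Tacr3 in the DG had a mean of 10.1 ± 3.57 CPM in Sal and 1.93 ± 1.46 CPM in METH (SD, n = 4 each). The log2 fold change was -2.37 (SE 0.59, 95% interval -3.72 to -1.01, edgeR FDR = 0.2), a ratio of 5.16. Groups without overlap were found for 7.36% of all genes in the DG, beside 2.3% in the NAc and 1.6% in the SVZ. DESeq2 gave an FDR of 0.00459, which passes the threshold, and 2 RUVr factors (estimates of unwanted variation) an FDR of 0.0412. Without DG Sal 1 and 2 and DG METH 1 and 2, the libraries with crossed numbers, the log2 fold change was -1.85 (edgeR FDR = 0.765, 2 against 2 samples). Only 1 inferred run held both treatments, with 5.66 CPM in Sal 3 against 1.17 and 2.46 CPM in METH 1 and 2. With the inferred run as a covariate the log2 fold change was -1.65 (edgeR FDR = 0.627).

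Among the hippocampal samples, Tacr3 was lower in most of those with higher levels of genes listed as granule neuron markers. The summed level of 6 such genes (Prox1, C1ql2, Dsp, Pdzd2, Npnt and Trpc6) was 341, 175, 214 and 195 CPM in DG Sal 1 to 4 and 590, 509, 177 and 414 CPM in DG METH 1 to 4. DG METH 3, with the lowest granule sum of the METH samples, had their highest Tacr3. In the CA the sum was 487, 188, 586 and 252 CPM in Sal and 163, 199, 361 and 249 CPM in METH. This sum was not particular to the hippocampus. Its medians were 251 and 312 CPM in NAc Sal and SVZ Sal, and 205 and 369 CPM in DG Sal and CA Sal. The lowest Tacr3 of the CA saline samples, 0.795 and 4.91 CPM, were those of Sal 1 and 3, where the sum was highest. Pearson's r of both on the log2 scale was -0.69 over the 16 hippocampal samples, -0.68 over the 8 of the DG and -0.74 over the 8 of the CA, given as a description over samples that share libraries and dissection. Without the 4 DG libraries with crossed numbers, r over the other 12 hippocampal samples was -0.61. While the granule sums of DG Sal and DG METH overlapped, those of 2 other lists did not. The astrocyte genes summed to 1841 to 2177 CPM in DG Sal and 2602 to 2727 CPM in DG METH, and also lay apart in the NAc and SVZ. The 6 genes listed for septal and neighbouring neurons (Trpc4, Dgkg, Zeb2, Zic1, Zic4 and Nts) summed to 342 to 529 CPM and 653 to 878 CPM. Their medians were 447 and 668 CPM in DG Sal and CA Sal, against 234 and 410 CPM in NAc Sal and SVZ Sal. They are thus not read as septal neurons here. The part of any of these lists in the METH difference was not tested. In such bulk samples, fewer cells of a type and less RNA per cell cannot be told apart.

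**Figure D2:**
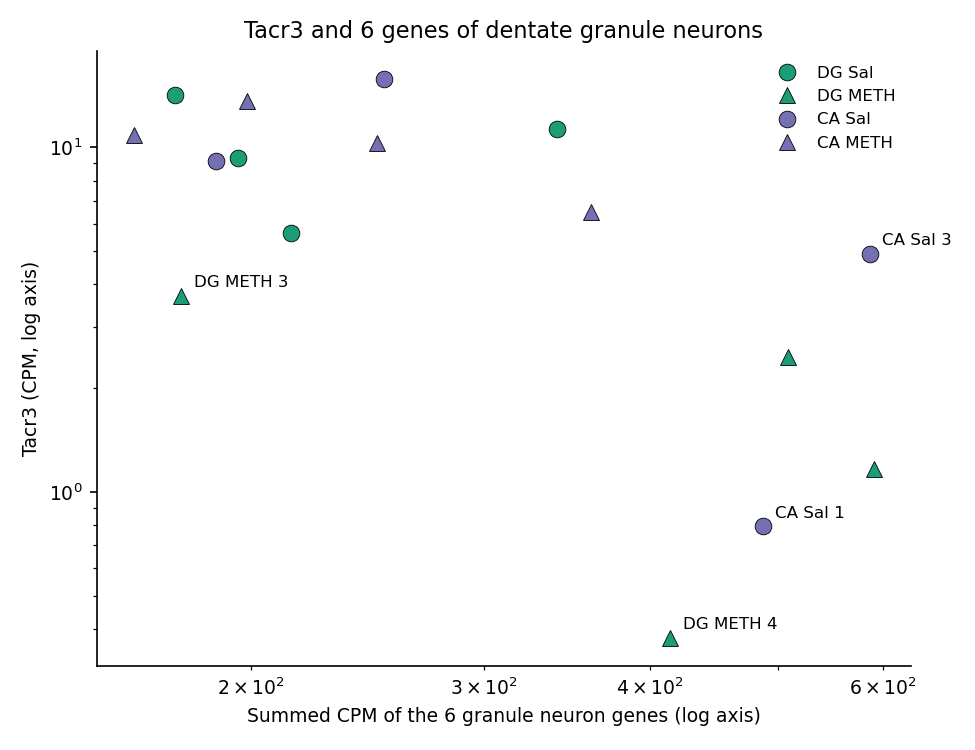
Tacr3 in CPM against the summed CPM of 6 granule neuron genes in the 16 DG and CA samples (both log axes), with circles for saline and triangles for METH. CA Sal 1 and DG METH 1, 2 and 4 share a granule sum of 414 to 590 CPM and a Tacr3 level of at most 2.46 CPM, while DG METH 3 has a sum of 177 CPM. CA Sal 3 also lies in that range of sums, at 586 CPM, but has 4.91 CPM of Tacr3.

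Tac1 in the CA had a mean of 4.97 ± 2.27 CPM in Sal and 8.75 ± 1.57 CPM in METH (SD, n = 4 each). The log2 fold change was 0.83 (SE 0.33, 95% interval 0.08 to 1.57, edgeR FDR = 0.687), a ratio of 1.78. Groups without overlap were found for 4.5% of all genes in the CA. Within the inferred runs, the METH samples were higher both in the first (7.86 and 11 against 6.83 CPM) and the second (7.45 and 8.73 against 4.19 CPM). The other 2 saline samples were marked as merged in the headers, a set without METH. The summed level of the 6 striatal genes was 495 to 584 CPM in CA Sal and 520.1 to 875 CPM in CA METH, and overlapped. That of 9 genes of GABA interneurons (Sst, Npy, Nos1, Chodl, Pvalb, Vip, Cck, Gad1 and Gad2) did not, at 662 to 870.3 CPM in CA Sal and 947 to 1127 CPM in CA METH. Within the interneuron list the CA log2 fold change was 0.10 for Gad1, 0.26 for Gad2 and 0.43 for Cck. Npy, at no more than 0.19 CPM in any CA sample, added little to the sum. The part of either list in the Tac1 difference was not tested.

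In the DG the Tac1 difference leaned on 1 sample. The log2 fold change was -1.97 (SE 0.89, 95% interval -4.00 to 0.07, edgeR FDR = 0.41), -0.57 without DG Sal 3, -2.89 without DG METH 3 and -2.07 without the 4 libraries with crossed numbers. With the run as a covariate it was -4.58 (edgeR FDR = 0.124), but the shared run held DG Sal 3 as the only saline sample. In the NAc the log2 fold change of Tac1 was -0.25 (95% interval -1.65 to 1.16) and 0.09 without METH 3. In the SVZ it was -1.25 (95% interval -3.70 to 1.19), -1.66 without Sal 1 and -0.88 without METH 2. The NAc and SVZ intervals include differences above 2-fold in either direction.

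Tacr1 had log2 fold changes of -0.17 (95% interval -0.69 to 0.35) in the NAc, -0.03 (-1.33 to 1.27) in the DG, 0.06 (-0.75 to 0.88) in the CA and -0.38 (-1.86 to 1.09) in the SVZ. The NAc interval was the narrowest of the 16. Without DG Sal 3, the DG value was 0.83. For Tac3 outside the NAc the values were -0.19, 0.38 and 0.21 in the DG, CA and SVZ, and for Tacr3 outside the DG they were -0.30, 0.45 and 1.05 in the NAc, CA and SVZ, with an FDR of at least 0.818 in each. The CA value of Tacr3 rested on CA Sal 1, as it was 0.06 without that sample.

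**Figure D3:**
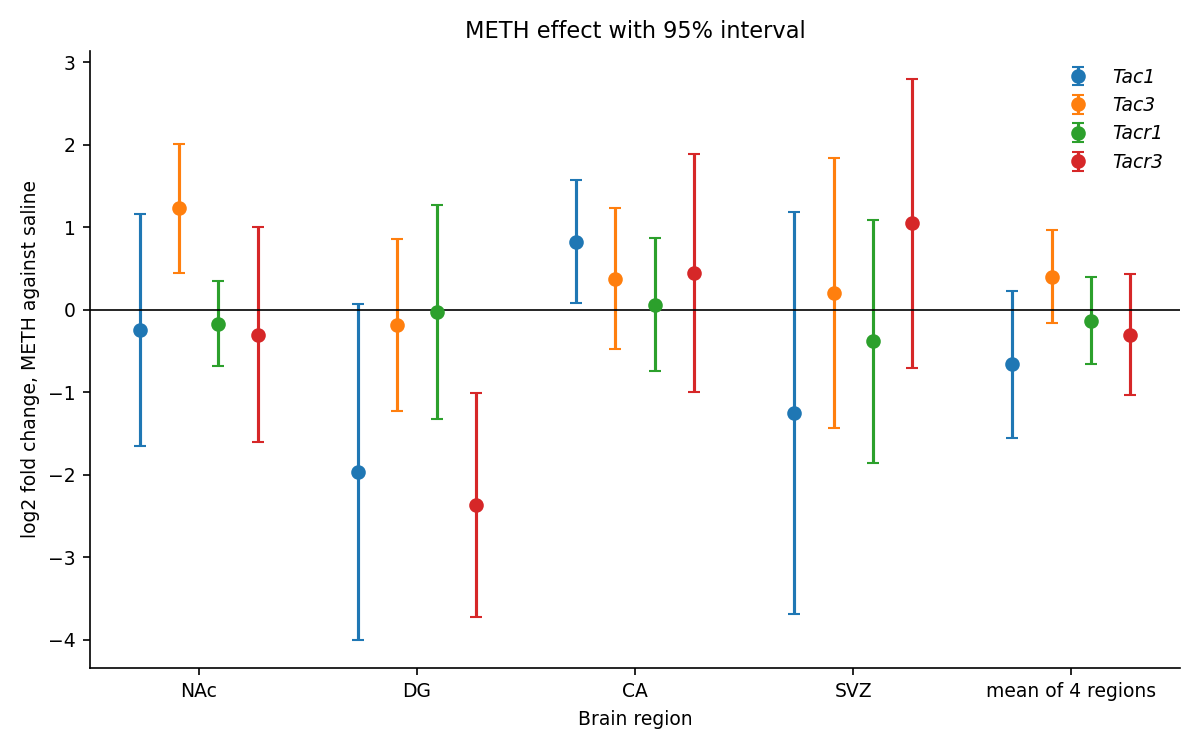
Log2 fold change of METH against saline for the 4 genes in each region and for the mean of the 4 regions, with 95% intervals. Only the intervals of Tac3 in the NAc (0.45 to 2.01), Tacr3 in the DG (-3.72 to -1.01) and Tac1 in the CA (0.08 to 1.57) leave out 0.

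Over the 4 regions together, the mean log2 fold change was -0.66 (SE 0.43) for Tac1, 0.40 (SE 0.27) for Tac3, -0.13 (SE 0.26) for Tacr1 and -0.30 (SE 0.36) for Tacr3. The edgeR FDR was 0.723 to 0.902, and 0% of 16122 genes were called. None of the 4 genes had an unadjusted p under 0.05, beside 7.83% of all genes. The median of the mean effect over all genes was 0.01.

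The difference of the METH effect between regions was tested as an interaction, since METH and saline values of a gene lay apart in 1 region and not in another. The fit treated samples of different regions as independent. For Tacr3 the effect in the DG was lower than that in the SVZ by a log2 value of -3.41 (SE 1.04, edgeR FDR = 0.307) and than that in the CA by -2.81 (SE 1.02, FDR = 0.214). Without the 4 DG libraries with crossed numbers these were -2.88 (edgeR FDR = 0.478) and -2.27 (FDR = 0.51). For Tac1 the DG effect was lower than the CA effect by -2.79 (SE 1.28, edgeR FDR = 0.348), and by -1.39 without DG Sal 3. For Tac3 the NAc effect was above the DG effect by 1.41 (SE 0.77, edgeR FDR = 0.6). None of the 24 interactions of the 4 genes was called, and the shares called of all genes were 0% in 5 pairs of regions and 0.0124% between the DG and CA.

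Levels between regions were compared among the 16 saline and, separately, among the 16 METH samples, where a call needed an FDR below 0.01 and more than a 2-fold difference. The only call among the 48 tests of these genes was Tac1 in METH samples between the NAc and DG, which had means of 88.4 ± 46.4 and 4.30 ± 4.04 CPM (SD, n = 4 each). The log2 difference was 4.33 (SE 0.83, 95% interval 2.55 to 6.11, edgeR FDR = 0.00393), and 3.1% of all genes were called in this pair. In METH samples the share called was 1.27%, 0.0384%, 0%, 3.94% and 3.91% for NAc-CA, NAc-SVZ, DG-CA, DG-SVZ and CA-SVZ. In saline samples it was 0.0193% for DG-SVZ, 0.812% for CA-SVZ and 0% for the other pairs. The NAc and DG METH groups of Tac1 did not overlap, as the lowest NAc sample had 19.1 CPM and the highest DG sample 10.3 CPM. The share of all genes without overlap between regions was not counted. The FDR was above 0.01, and the call was lost, when NAc METH 1, 2 or 4 or DG METH 1, 2 or 4 was left out, at 0.0107 to 0.0192, with log2 differences of 4.04 to 4.23. Without the 4 DG libraries with crossed numbers it was 0.0714, with a log2 difference of 3.74.

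The order of Tac1 means was NAc, SVZ, DG and CA in saline and NAc, SVZ, CA and DG in METH. The NAc and SVZ did not differ beyond their spread in saline (log2 difference 0.49, 95% interval -1.36 to 2.34) or METH (1.48, -0.07 to 3.04), nor did the DG and CA (1.80, -0.22 to 3.81 in saline and -0.99, -2.65 to 0.67 in METH). Across these pairs, NAc against CA gave 4.43 (edgeR FDR = 0.0325) in saline and 3.34 (FDR = 0.0201) in METH, and CA against SVZ gave -3.93 (FDR = 0.0233) in saline. Saline NAc against DG gave 2.63 (FDR = 0.361), and 4.03 (FDR = 0.0375) without DG Sal 3.

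For Tac3 the NAc was highest in both treatments. Its log2 difference from the DG, CA and SVZ was 0.67, 1.31 and 0.86 in saline (edgeR FDR of 0.169 to 0.674) and 2.08, 2.15 and 1.87 in METH (FDR of 0.0149 to 0.0516). Without DG METH 1 and 2 the METH difference from the DG was 2.18 (FDR = 0.0996). The other 3 regions had saline means of 5.83 to 9.06 CPM and METH means of 7.58 to 9.16 CPM, and their log2 differences lay between -0.45 and 0.64.

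Tacr1 was also highest in the NAc, at 8.06 ± 1.28 CPM in Sal and 7.10 ± 2.11 CPM in METH (SD, n = 4 each), against means of 2.20 to 3.66 CPM elsewhere. The lowest NAc METH sample, at 4.61 CPM, was above every METH sample of the other regions, the highest of which had 3.68 CPM. How many of all genes lay apart in this way was not counted. The log2 difference of the NAc from the DG, CA and SVZ was 1.47, 1.61 and 1.34 in METH (edgeR FDR = 0.0104, 0.0119 and 0.0438) and 1.62, 1.86 and 1.14 in saline (FDR of 0.095 to 0.472). Without DG METH 1 and 2 the METH difference from the DG was 1.44 (FDR = 0.086). In saline, DG Sal 3 set the spread of the DG, and the NAc to DG difference was 2.48 (FDR = 0.0489) without it.

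For Tacr3 the order changed with the treatment. It was DG, CA, NAc and SVZ in saline, with means of 10.1, 7.66, 6.44 and 1.6 CPM, and CA, NAc, SVZ and DG in METH, with 10.3, 5.17, 3.31 and 1.93 CPM. The first 3 saline regions differed from each other by log2 values of -0.64 to 0.40, below their standard errors of 0.73. The SVZ was lower than the DG by a log2 value of 2.65 (edgeR FDR = 0.126) in saline, and in METH the DG differed from the CA by -2.40 (FDR = 0.18).

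**Figure D4:**
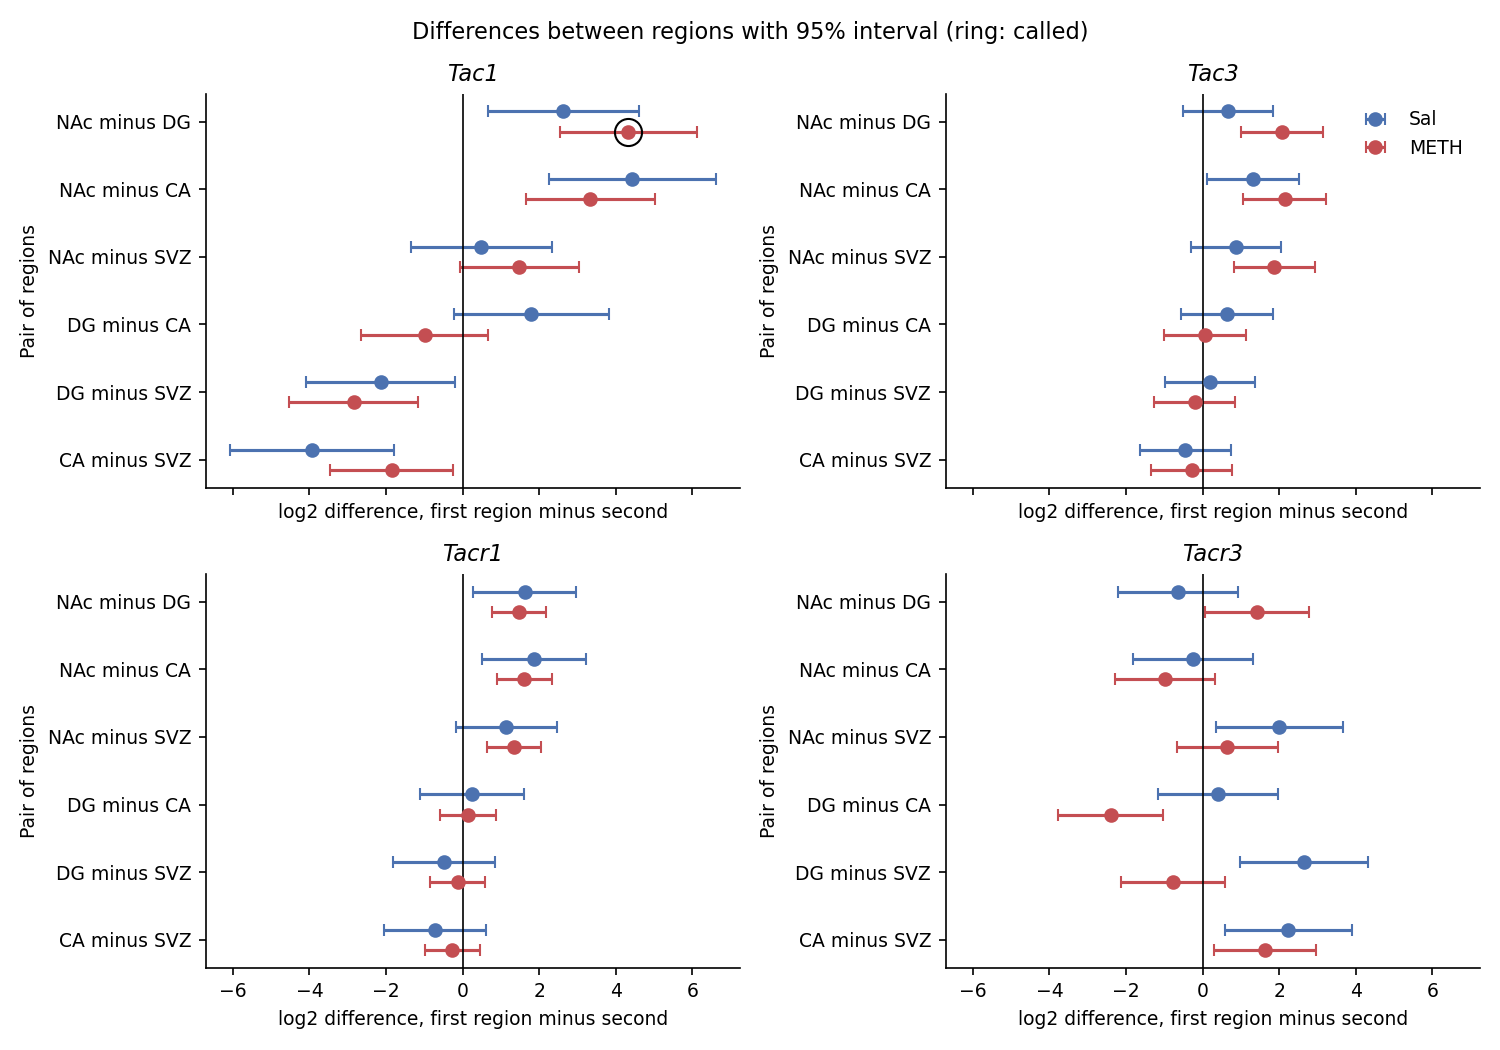
Log2 difference of each pair of regions for the 4 genes, with 95% intervals, in saline (blue) and METH (red) samples, and a ring around the only call. Tac1 differs most between the NAc or SVZ and the hippocampus, Tacr1 between the NAc and the other regions, and the Tacr3 difference of DG and CA is 0.40 in saline and -2.40 in METH.

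Over the 32 samples, Tac1 went with the genes of striatal projection neurons. Pearson's r of log2(CPM + 1) was 0.92 with the 6 genes named above, 0.94 with the summed genes of Drd2 neurons (Drd2, Penk, Adora2a, Gpr6, Gpr52 and Sp9) and 0.91 with those of Drd1 neurons (Drd1, Pdyn, Chrm4, Isl1, Eya1 and Sfxn1). Per 100 CPM of the 6 genes, Tac1 was 2.16 to 4.21 CPM in NAc Sal and 3.11 to 5.83 CPM in NAc METH, the latter value in METH 3. In DG Sal 3 this ratio was 2.52, within the NAc range, while it was 0.667 in SVZ Sal 1 and 0.928 in SVZ METH 2, below it. SVZ Sal 3, SVZ Sal 4 and SVZ METH 4 were also below the NAc range, at 2.06, 1.67 and 2.09. DG METH 3, whose Tac1 was also far from that of its group, had a sum of 550.1 CPM, within the 511 to 665 CPM of the other DG METH samples, and a ratio of 1.87 against their 0.289 to 0.502. On other lists it did stand apart. Its summed genes of Drd2 neurons were 152 CPM, against 25.1 to 44.6 CPM in the other DG METH samples. Its thalamic genes summed to 182 CPM, against 58.7 to 78.6 CPM. Its choroid plexus genes (Ttr, Aqp1, Folr1, Kl and Clic6) summed to 6186 CPM, against 8.02 to 28.0 CPM. The part of dissection in the Tac1 differences was not tested.

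**Figure D5:**
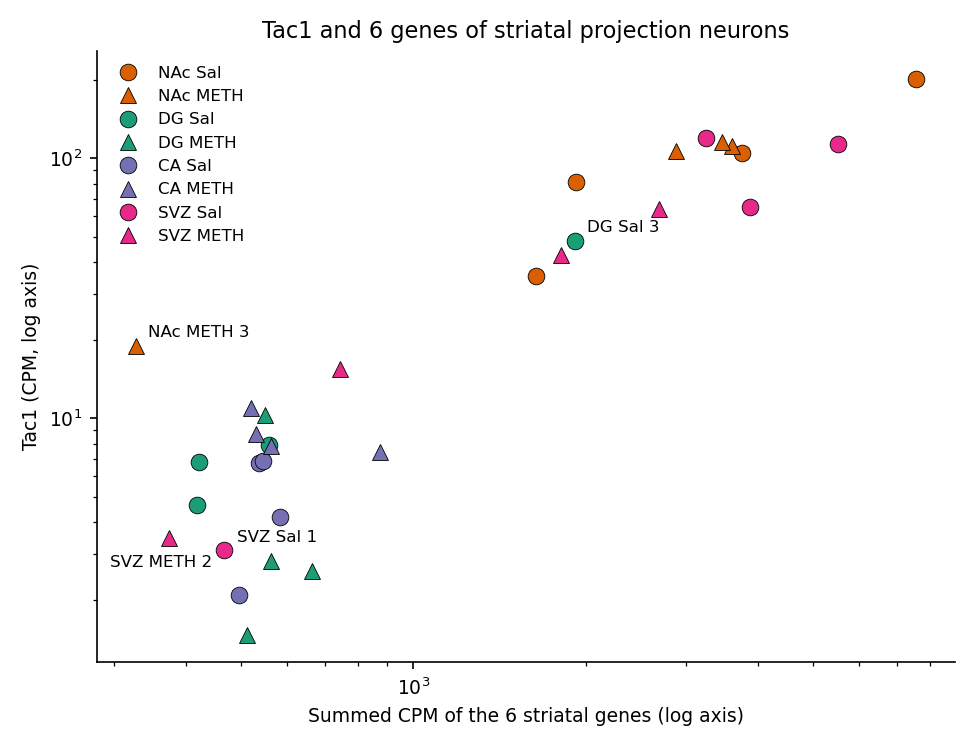
Tac1 in CPM against the summed CPM of 6 genes of striatal projection neurons in the 32 samples (both log axes), with circles for saline and triangles for METH. DG Sal 3 (48.3 CPM) lies among the NAc and SVZ samples, while NAc METH 3 (19.1 CPM), SVZ Sal 1 and SVZ METH 2 lie away from their own regions.

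Tacr1 had its highest r among the 15 marker lists with the cholinergic genes (Chat, Slc5a7, Slc18a3 and Lhx8), 0.79, followed by the genes of Drd1 (0.73) and Drd2 neurons (0.69). Tac1 had an r of 0.80 with the cholinergic genes. Tac3 had 0.63 with the genes of Drd1 neurons and 0.60 with the cholinergic genes. Tacr3 had r between -0.61 (granule neurons) and 0.38 (medial habenula). Between the genes, r was 0.72 for Tac1 and Tacr1, 0.69 for Tac3 and Tacr1 and 0.60 for Tac1 and Tac3, while Tacr3 had -0.0019 with Tac1, 0.06 with Tac3 and -0.02 with Tacr1. These values describe samples of 4 regions, which share their region and its libraries with each other.

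Among 16122 genes, the 5 most like Tac1 over the 32 samples were Meis2, Gpr52, Drd2, Ric8b and Oprk1, with r of 0.95 to 0.96. Those most like Tac3 were Mc4r, AABR07020966.1, Brs3, Ap1s2 and Calcr, with r of 0.74 to 0.84. Mc4r, a melanocortin receptor gene, had 4.39 ± 2.4 CPM in NAc Sal and 7.26 ± 3.5 CPM in NAc METH (SD, n = 4 each). Those most like Tacr1 were Qpct, Gpr101, Xpr1, Lhfpl1 and Grik2 (0.86 to 0.90), and those most like Tacr3 were Olfm2, Tle2, Fxyd6, Vstm2b and Nrsn1 (0.78 to 0.82). Vstm2b had 25.9 ± 6.7 CPM in DG Sal and 15.3 ± 4.2 CPM in DG METH.

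The other genes of the pathway were taken from a list of 21, which holds the further ligand and receptor genes Tac4 and Tacr2, enzymes that make or degrade the peptides and members of the Gq and arrestin pathways. Of these, 19 passed the filter on low counts in each region and 0 were called, beside 0% of all genes. Tac4 was at or under the floor of 3 counts in 22 of the 32 samples and Tacr2 in 14, and neither was tested in single regions. Tacr2, the NK2 receptor that prefers neurokinin A, had 3, 6, 2 and 2 counts in DG Sal 1 to 4 and 15, 8, 28 and 32 counts in DG METH 1 to 4. In CA Sal 1, the sample with the low Tacr3, it had 29 counts, and 4 to 10 counts in the other CA saline samples.

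At an unadjusted p under 0.05, 3 genes of the list were higher and 2 lower in the DG, beside 6.35% and 6.42% of all genes. The largest of these was Prkca, a protein kinase C gene that acts after phospholipase C, with a log2 fold change of 0.87 (SE 0.16, edgeR FDR = 0.157). The others had an edgeR FDR of 0.297 to 0.381, with log2 fold changes of 0.77 for Pcsk1, which cuts peptide precursors, 0.32 for Gna11, a Gq family gene, -0.75 for Grk5, a kinase that turns receptors off, and -0.38 for Ece1, a peptidase. The list's median was 0.17 against -0.01 over all genes.

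In the CA 1 gene was higher (Grk2, 0.15), beside 4.37% of all genes, and 3 were lower at that p, beside 2.79%, namely Mme, the neprilysin gene that degrades substance P (-0.71), Pcsk2 (-0.24) and Arrb2 (-0.22). In the NAc only Ace, a peptidase gene, was lower (-1.61), beside 0.968% of all genes (2.42% higher). In the SVZ Itpr1, the calcium release channel (-0.74), and Arrb1 (-0.30) were lower, beside 1.39% of all genes (1.19% higher). The edgeR FDR was at least 0.669 in these 3 regions. Over the 4 regions together, Mme had a log2 fold change of -0.87 (SE 0.30, edgeR FDR = 0.516), Grk5 -0.24 and Plcb3 0.19. These were 2 lower and 1 higher at that p, beside 3.54% and 4.29% of all genes. The list's median was -0.07, -0.05 and -0.10 in the NAc, CA and SVZ, against 0.03, 0.01 and 0.02 over all genes.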

How the data were processed

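The authors trimmed the reads with cutadapt 2.7, mapped them to rn6 with STAR 2.5.2b and deposited a file of raw counts for every sample (featureCounts 1.6.3, strand not used). The file headers name Ensembl 95, the methods a UCSC annotation. The series' count matrix, also counts deposited by the authors, served as an alternative. Total counts, 11094002 to 21869773 per sample, set the precision, and 1 read is worth 0.046 to 0.094 CPM.

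Counts were normalized by the upper quartile, filtered with filterByExpr and tested with edgeR 4.0.16 (quasi-likelihood, R 4.3.3) over all genes, by region, in the 16 saline or METH samples, or in all 32. SE is the log2 fold change over the square root of F. Promoters came from RefSeq (GRCr8). Python 3.11.15, pandas 2.3.3 and matplotlib 3.10.9 made tables and figures. The procedure was tested on simulated data. Replicates differed by more than sampling noise (chi-square per gene of 15.4 or more). The paper's methods also remove RUVr factors, whose number is not given in the sources used here. They were an alternative, as were TMM, DESeq2 1.42.0, no filter, other thresholds and 1 fit of all samples. The replicate block, the sequencing run inferred from the file headers and leaving out samples were further alternatives. Handling of crossed or shared library numbers and of a mark in SVZ headers was added after seeing the data. The paper's methods and this threshold differ (2-fold there, 1.5-fold here). Replicate numbers were checked as pairs. Only saline NAc and CA samples went together in every pair (correlations of deviations 0.10 to 0.29). These share library numbers, as do METH NAc and CA samples, whose correlations were -0.071 to 0.20.

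The 4 genes and the lists were chosen with earlier results of these data known. Named were these genes, pathway genes with p under 0.05, the 5 genes most like each, and marker genes beside a result. Some marker genes are not reported here, and the summed levels leave them out.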

Additional observations from a re-analysis of the deposited data

Results flagged for a closer look

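In 4 of the 32 groups of 4 samples, 1 sample lay far from the other 3 by Dixon's test on untransformed CPM. Chance does this in about 1 of 20 groups if values are normally distributed, a rate that need not hold for skewed CPM. The test was not run on log values. Tac1 was 19.1 CPM in NAc METH 3, against 107 to 116 CPM in the other NAc METH samples. It was 48.3 CPM in DG Sal 3, against 4.63 to 7.91 CPM in the others, and 10.3 CPM in DG METH 3, against 1.48 to 2.83 CPM. Tac3 was 18.8 CPM in DG Sal 3, against 5.26 to 6.21 CPM in the other DG saline samples. No METH effect of the 4 genes lay wholly above saline in 1 region and wholly below it in another, and none of their interactions was called by edgeR.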

How the results depend on the processing

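Of 2536 values of 92 results under the alternatives, 2426 kept their direction and their side of the threshold, 66 changed sign, 37 passed the threshold and 7 lost it. None of the values that changed sign was called. Where no cause is named, the cause was not tested. All values are log2, and pairs are first region minus second.

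With an FDR under 0.05 and no minimum fold change, these passed at their main values: Tac1 in saline (NAc-CA 4.43, CA-SVZ -3.93) and METH (NAc-CA 3.34, DG-SVZ -2.85), Tac3 in METH (NAc-DG 2.08, NAc-CA 2.15) and Tacr1 in METH (NAc-DG 1.47, NAc-CA 1.61, NAc-SVZ 1.34). DESeq2 passed the same pairs at 4.38, -3.87, 3.30, -2.83, 2.03, 2.12, 1.42, 1.57 and 1.33, and also Tac3 in METH NAc-SVZ (1.86) and the METH effect on Tacr3 in the DG (-2.39). In 1 fit of all 32 samples, Tac1 in saline passed for NAc-CA (4.43) and CA-SVZ (-3.94). With SVZ METH libraries of 1 number summed, Tac1 in METH NAc-CA (3.34) and Tac3 in METH NAc-DG (2.08) and NAc-CA (2.15) passed. The call of Tac1 in METH NAc-DG was lost without the 4 DG libraries with crossed numbers (3.74). That fit also held fewer samples, and the cause of the loss was not tested.

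Signs changed with 2 RUVr factors for Tacr1 in the METH effects of the DG (0.19), CA (-0.0086), SVZ (0.045) and mean of regions (0.0033), in the interactions NAc-SVZ (-0.26), DG-CA (0.20) and CA-SVZ (-0.054), and for Tac3 in CA-SVZ (-0.15). The replicate block changed the sign of Tacr1 in the DG (0.31), of its DG-CA interaction (0.13) and of the Tac3 CA-SVZ interaction (-0.063), and changed no call. The replicate numbers did not pair the treatments: correlations of deviations of SVZ Sal and METH were -0.74 to 0.28. With the inferred sequencing run, Tac1 in the NAc was 0.25. It gave no value for the SVZ, which had 1 run. In SVZ libraries with the header mark, Tacr1 was 0.062. Without the 4 crossed DG libraries, Tac3 METH DG-CA was -0.029, Tacr1 interactions NAc-DG and DG-SVZ 0.34 and -0.13, Tacr1 saline DG-SVZ 0.024 and Tacr3 saline DG-CA -0.029.

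Leaving out each sample in turn left 56 results on the same side. The ranges of the others follow. Tac1 had -0.54 to 0.27 for METH in the NAc, -1.63 to 0.70 for the DG-SVZ interaction, 3.90 to 4.72, -0.031 to 0.80 and -4.34 to -3.62 for saline NAc-CA, NAc-SVZ and CA-SVZ, and 4.04 to 5.26, 3.18 to 3.67 and -3.78 to -2.22 for METH NAc-DG, NAc-CA and DG-SVZ. Tac3 had -0.39 to 0.46, -0.054 to 0.60 and -0.26 to 0.79 for METH in the DG, CA and SVZ, and -0.79 to 0.082, -0.99 to 0.26 and -0.42 to 0.65 for the interactions DG-CA, DG-SVZ and CA-SVZ. Its saline pairs DG-CA, DG-SVZ and CA-SVZ had -0.0086 to 0.83, -0.45 to 0.78 and -0.76 to 0.14, and its METH pairs NAc-DG, NAc-CA, DG-CA, DG-SVZ and CA-SVZ had 1.84 to 2.28, 1.91 to 2.58, -0.15 to 0.50, -0.51 to 0.27 and -0.70 to 0.20. Tacr1 had -0.33 to 0.83, -0.093 to 0.32 and -0.23 to 0.081 for METH in the DG, CA and mean of regions, and -1.01 to 0.15 and -0.40 to 0.76 for the interactions NAc-DG and DG-CA. Its saline DG-CA had -0.62 to 0.53, and its METH pairs NAc-DG, NAc-CA, DG-CA and DG-SVZ had 1.30 to 1.63, 1.35 to 1.77, -0.12 to 0.30 and -0.27 to 0.034. Tacr3 had -1.001 to 0.15 for METH in the NAc, -1.19 to 0.028 for the CA-SVZ interaction, -0.70 to 0.39 for saline NAc-CA and -0.045 to 1.14 for METH NAc-SVZ.

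Depth limits Tacr3 and Tacr1 most, whose lowest samples had 4 and 8 reads, and 4 samples a group limit every comparison.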

Other observations

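The balance of the receptor genes was set out per exon length. The ratio of Tacr1 to Tacr3 in CPM per kb was 0.343, 0.098, 1.88 and 0.25 in DG Sal 1 to 4 and 4.83, 1.3, 1.34 and 11.2 in DG METH 1 to 4. Tacr3 was thus above Tacr1 in 3 of 4 saline samples and below it in 4 of 4 METH samples of the DG, with DG Sal 3 above 2 of the METH samples. The DG samples whose library numbers are not crossed, Sal 3 and 4 and METH 3 and 4, overlapped. In the CA the ratio was 6.68, 0.385, 0.806 and 0.175 in Sal and 0.149, 0.398, 0.776 and 0.414 in METH, and CA Sal 1 stood apart. The NAc gave 1.5 to 4.73 in Sal and 1.51 to 5.47 in METH, above 1 in all 8 samples.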
